A study of Homo sapiens with 55 samples.

Results

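ACOT9 encodes an acyl-CoA thioesterase of mitochondria, and 8 splicing events of its transcript were counted among the 110816 events with coordinates in each deposited file. They were taken by position: chromosome X, minus strand, all junction ends between positions 23721000 and 23762000 of build hg19. The event described first, inclusion of exon 3 between exons 2 and 4, was chosen by its measured usage, which was lower with GPATCH8 guides. Every value of ACOT9 with GPATCH8 guides against control guides is therefore given as a description, with no test. Whether that difference depended on a mutation was tested. Those tests use the same values, so their p-values are not independent of the choice. Of the 8 events, 6 were skipped exons, 1 was a choice of 3' splice site and 1 a choice of 5' splice site.

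RNA came from K562 cells, an established line from a chronic myeloid leukaemia with erythroid features, and from 293T cells, an established human embryonic kidney line. The study asked how deletion of GPATCH8 with CRISPR guides changes splicing with and without leukaemia-associated mutations of splicing factors. In a first set, K562 cells with SF3B1 WT or with a knock-in of SF3B1 K700E received the control guide sgRenilla (1 library each), sgGPATCH8 (2 libraries each, guide 16 and guide 17) or sgSUGP1 (2 libraries each, guide 3 and guide 4). A second set overexpressed SRSF2 WT or SRSF2 P95H and another overexpressed U2AF1 WT or U2AF1 S34F, each with sgRenilla or sgGPATCH8 (3 libraries per group). The last set was 293T with sgRenilla (2 libraries), sgGPATCH8 (4 libraries) and sgSUGP1 (4 libraries). In the labels, sgRenilla of 293T carried the name WT-1 alone, while the other guides carried WT-1 and WT-2, and what these names stand for is not stated. The labels do not say whether a library came from a culture of its own, so the spread between libraries may be technical.

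Acyl-CoA thioesterases split fatty acyl-CoA into a free fatty acid and coenzyme A, and ACOT9 does so for short and long acyl chains inside mitochondria. Exon inclusion is decided by how well the splicing machinery recognises both ends of an exon. SF3B1, U2AF1 and SUGP1 act where the branch site and the 3' splice site are recognised, SRSF2 binds exonic enhancers, and GPATCH8 and SUGP1 are both G-patch proteins, a domain that activates RNA helicases. Exons as short as exon 3 are often called microexons, and they give the machinery little exonic sequence to bind.

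The exons around the finding are printed first because the alternative is between a message with and one without the 27 nt of exon 3. They were read from the GENCODE 29 transcript with 16 exons (build GRCh38, minus strand), in which exon 2 lies at chrX:23735919-23736016, exon 3 at chrX:23734341-23734367 and exon 4 at chrX:23733172-23733217. All 3 are coding exons. Exon 3 is in capitals, with exon 2 before and exon 4 after it, 5' to 3':
ACOT9 exons 2 to 4: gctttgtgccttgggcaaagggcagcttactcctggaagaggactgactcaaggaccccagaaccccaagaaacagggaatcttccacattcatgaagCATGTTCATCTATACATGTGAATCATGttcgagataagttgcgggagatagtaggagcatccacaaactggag
Without the capitals, the same run is the exon 2 to exon 4 junction of the transcript that lacks exon 3. Of the 8 annotated transcripts of the gene, 1 held exon 3 and 2 joined exon 2 to exon 4.

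Exon 3 has 4 G, 5 C, 8 A and 10 T, a GC content of 33.3%, against 52.0% in the 98 nt of exon 2 and 47.8% in the 46 nt of exon 4. Its length is a multiple of 3, so inclusion adds 9 codons (1344 coding nt with it, 1317 without) and no stop codon. Exon 2 is not a multiple of 3. From the annotated start, a message that joins exon 1 to exon 3 reaches a stop at codon 19, and one that joins exon 1 to exon 4 at codon 10. The introns on either side of exon 3 are 1551 and 1123 nt long, and intron 1 is 7108 nt.

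**Figure D1:**
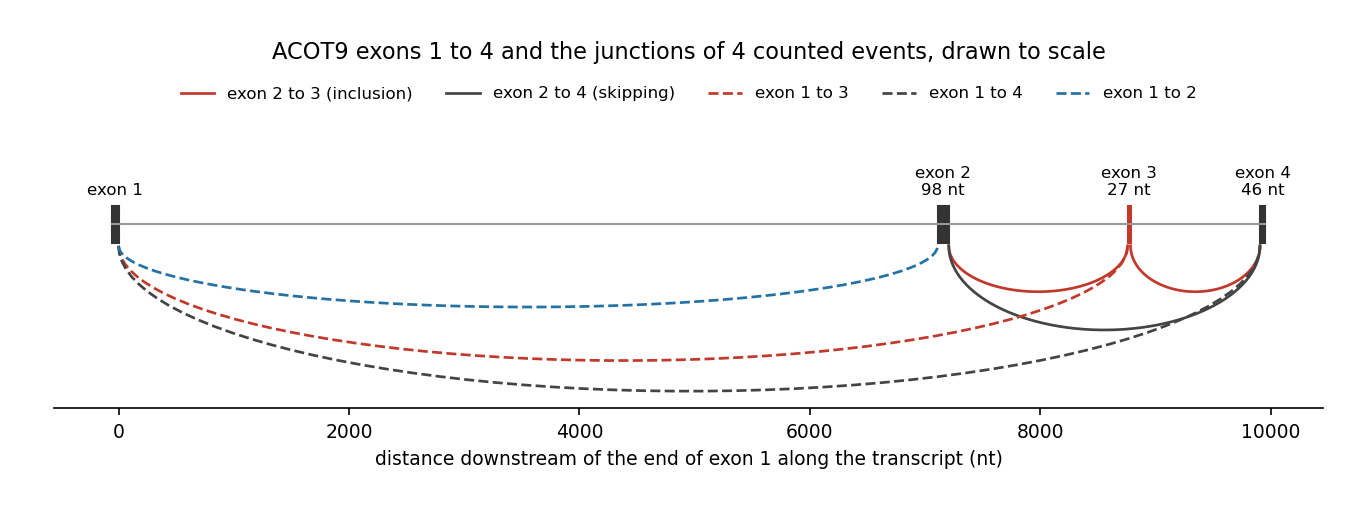
Exons 1 to 4 of ACOT9 along the transcript, to scale, with distance from the end of exon 1 in nt on the horizontal axis and one arc per junction. Exon 3 (red, 27 nt) lies between introns of 1551 and 1123 nt, and exon 1 is joined to exon 2, exon 3 or exon 4.

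Usage is the share, in percent, of the isoform listed first in an event, which for a skipped exon is the isoform that includes it. It says nothing of how much ACOT9 message a cell held, and the depth behind a share is unknown. Each library had a value for 73.0% to 79.2% of all events. Events of erythroid genes (7 of 11 listed genes had events) had 94.9% to 98.5% of their values in the 3 K562 sets and 23.5% in 293T, while events of 3 of 5 genes listed for 293T had 12.5% and 100.0%. The files give no gene levels, so the loss of GPATCH8 and SUGP1 themselves was not analysed here.

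Exon 3 was included in most ACOT9 messages that held exon 2 in control cells and in a minority of them with GPATCH8 guides, in every set. Over all 16 sgRenilla libraries inclusion after exon 2 was 57% to 79% (median 71.5%). Over all 20 sgGPATCH8 libraries it was 7% to 29.5% (median 20%). Over the 8 sgSUGP1 libraries it was 69% to 83.5% (median 76.25%). No sgGPATCH8 library reached the lowest of the others. The exon was chosen for this difference, so its separation is largely built into the choice and tests nothing. In hg19 the inclusion junction runs between 23752484 and 23754036 and the skipping junction between 23751334 and 23754036.

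**Figure D2:**
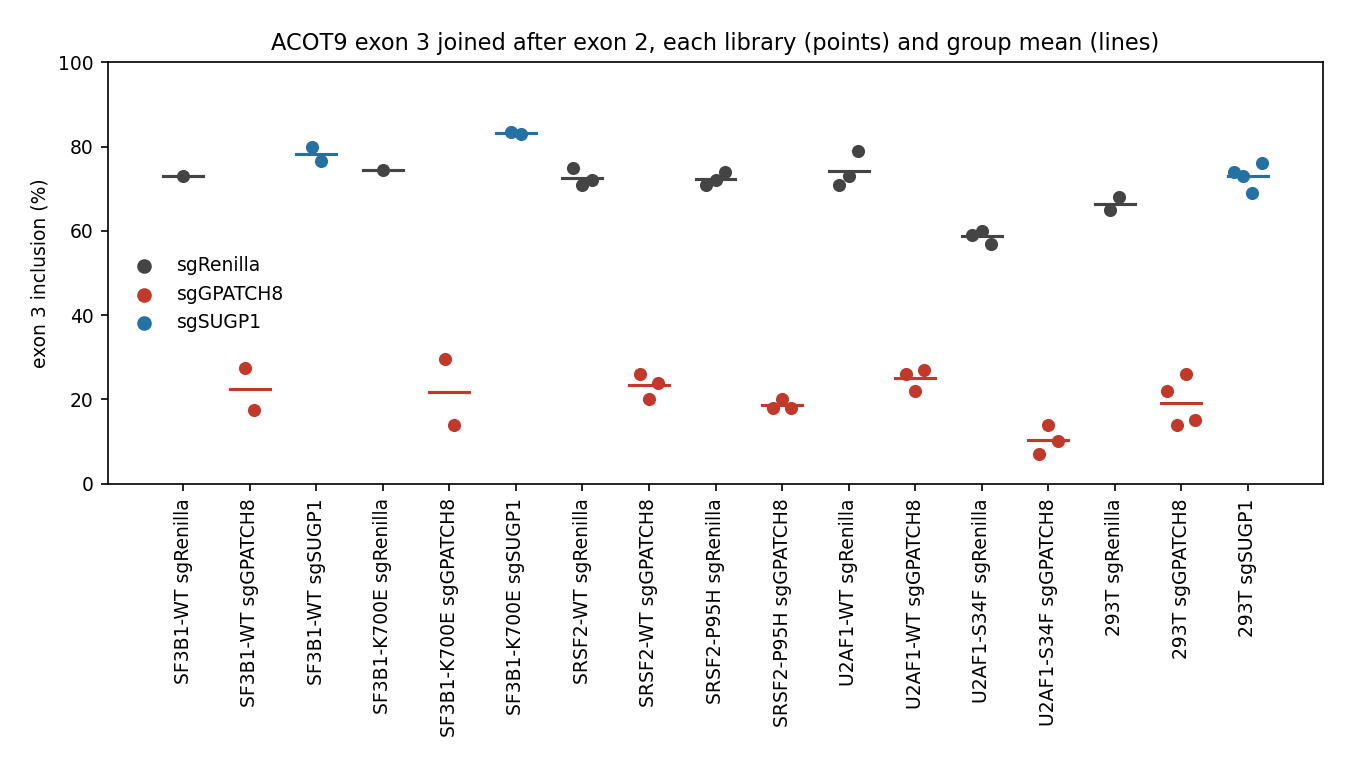
Inclusion of ACOT9 exon 3 after exon 2 (percent, vertical axis) in each of 44 libraries (points) with the group mean (line), coloured by guide target. The 20 sgGPATCH8 libraries lie between 7% and 29.5%, all below the other 24, and the U2AF1 S34F libraries lie below the U2AF1 WT libraries with either guide.

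In the SF3B1 set each library had 2 sequencing runs, which were averaged. SF3B1 WT with sgRenilla gave 73% in both runs. SF3B1 WT with sgGPATCH8 gave 30% and 25% in the runs of guide 16 and 20% and 15% in those of guide 17. These 2 libraries averaged 22.5%, a difference of -50.5 points from the control library.

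K700E with sgRenilla gave 70% and 79%. K700E with sgGPATCH8 gave 32% and 27% with guide 16 and 14% in both runs with guide 17. Their mean was 21.75%, a difference of -52.75 points from the K700E control. Between runs, inclusion of this exon moved by 4 points in the median library and by 10 points at most, far less than the distance between the guide targets.

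In the SRSF2 set, SRSF2 WT with sgRenilla gave 75%, 71% and 72%, and with sgGPATCH8 26%, 20% and 24%. Inclusion was 72.7% ± 2.08 (SD, n = 3) and 23.3% ± 3.06 (SD, n = 3), a difference of -49.33 points. P95H with sgRenilla gave 71%, 72% and 74%, and with sgGPATCH8 18%, 20% and 18%. Here the groups were 72.3% ± 1.53 (SD, n = 3) and 18.7% ± 1.15 (SD, n = 3), a difference of -53.67 points. Neither pair of groups overlapped, which the choice of the exon largely builds in.

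In the U2AF1 set, U2AF1 WT gave 71%, 73% and 79% with sgRenilla and 26%, 22% and 27% with sgGPATCH8. The means were 74.3% ± 4.16 (SD, n = 3) and 25.0% ± 2.65 (SD, n = 3). U2AF1 S34F gave 59%, 60% and 57% with sgRenilla and 7%, 14% and 10% with sgGPATCH8. The means were 58.7% ± 1.53 (SD, n = 3) and 10.3% ± 3.51 (SD, n = 3), and the difference of -48.33 points was close to the -49.33 points in U2AF1 WT.

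In 293T, sgRenilla gave 65% and 68%. The sgGPATCH8 libraries gave 22% and 26% with guide 16 and 14% and 15% with guide 17, with a mean of 19.25% ± 5.74 (SD, n = 4). This SD includes the gap between the guides and is not a spread between replicates alone. The difference from sgRenilla was -47.25 points, and if WT-1 and WT-2 are different cells, then a control of the WT-2 cells is lacking here. Guide 17 gave lower inclusion than guide 16 in each of the 3 settings that used both, by 10 points in SF3B1 WT, 15.5 points in K700E and 9.5 points in 293T.

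Set against all other events, these differences lay near the end of the distribution in each comparison. Among the events with a value in every library and a group mean away from both limits, exon 3 had the 15th largest fall of 50823 in SF3B1 WT and the 9th in K700E. Its rank was the 3rd of 43963 in SRSF2 WT and the 9th in P95H. It was the 4th of 43468 in U2AF1 WT, the 3rd in S34F, and the 5th of 46493 in 293T. The median difference over all those events was between -0.5 and 0.5 points in each comparison. Since the exon was chosen for this difference, the ranks describe it and test nothing.

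By mean inclusion the groups ran from K700E with sgSUGP1 (83.25%) and SF3B1 WT with sgSUGP1 (78.25%) down through 6 groups of 74.5% to 72.3%, whose neighbours in that order overlapped. These were the sgRenilla groups of SF3B1, SRSF2 and U2AF1 WT, of K700E and of P95H, and 293T with sgSUGP1. Next came 293T with sgRenilla (66.5%) and S34F with sgRenilla (58.7%), each apart from its neighbours. The sgGPATCH8 groups followed from 25.0% (U2AF1 WT) to 18.7% (P95H), with overlapping ranges. S34F with sgGPATCH8 was last at 10.3% and did not overlap with the group before it.

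Inclusion was not lower with SUGP1 guides. In SF3B1 WT, sgSUGP1 gave 81% and 79% with guide 3 and 76% and 77% with guide 4. The difference from the control library was 5.25 points (log2 ratio of included to skipped 0.40 ± 0.58 SE, limma adjusted p = 0.899). In K700E it gave 82% and 85% with guide 3 and 78% and 88% with guide 4, a difference of 8.75 points (0.74 ± 0.58 SE, limma adjusted p = 0.704). In 293T the values were 74% and 69% with guide 3 and 73% and 76% with guide 4, 6.5 points above sgRenilla (0.44 ± 0.22 SE, limma adjusted p = 0.714). None of these 3 differences passed the test. In the SF3B1 set the guides of a target stood as the libraries of 1 group, and each control was 1 library. The spread between libraries in that fit is thus a spread between guides, and the GPATCH8 guides lay furthest apart. A small shift could therefore go undetected in the SF3B1 set. In 293T each guide had a mean of its own.

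An event was called changed where the limma p, adjusted by Benjamini-Hochberg over all events tested, was under 0.05 and the groups differed by at least 5 points. Of the 8 ACOT9 events, 4 could be tested in the SF3B1, SRSF2 and 293T sets and 5 in the U2AF1 set. In the rest every group mean was above 95% or every group mean was below 5%. With sgSUGP1, 0 of 4 were called in SF3B1 WT (0.0197% of all events tested), 0 of 4 in K700E (0.0944%) and 0 of 4 in 293T (0.0452%). At an unadjusted p under 0.05 the counts were 0, 1 and 0, and the 1 was exon 2, described further on. Over all events tested, 4384 of 50823, 5958 of 50823 and 3501 of 46493 were under that p.

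K700E did not shift exon 3 by a detectable amount, in the same fit with guides in the place of replicates. Averaged over the guide targets it differed from WT by 1.92 points (0.15 ± 0.32 SE on the log2 ratio scale, limma adjusted p = 0.83). The effect of the GPATCH8 guides in K700E differed from that in WT by -2.25 points (limma adjusted p = 0.973), and that of the SUGP1 guides by 3.5 points (limma adjusted p = 0.947). The GPATCH8 comparison draws on the falls for which the exon was chosen, so its p is no independent test. With limma, 0 of 4 ACOT9 events were called for K700E against WT (3.35% of all events tested), 0 of 4 for K700E by GPATCH8 guide (0.0295%) and 0 of 4 for K700E by SUGP1 guide (0.0%). At an unadjusted p under 0.05 there were 0, 2 (exon 2 and exon 3 after exon 1) and 1 (exon 2) ACOT9 events. Of all 50823 events tested, 11469, 4842 and 4713 were under that p in the same order.

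P95H was also without a detectable effect on it. With sgRenilla, P95H differed from WT by -0.33 points (-0.03 ± 0.16 SE on the log2 ratio scale, limma adjusted p = 0.969). With sgGPATCH8 the P95H libraries, at 18% to 20%, touched the lowest WT library at 20%, a difference of -4.67 points (-0.39 ± 0.16 SE, limma adjusted p = 0.202). The 2 differences were not told apart (-4.33 points, limma adjusted p = 0.57), in a comparison that again draws on the falls for which the exon was chosen. Limma called 0 of 4 ACOT9 events with sgRenilla (1.08% of all events tested), 0 of 4 with sgGPATCH8 (4.06%) and 0 of 4 for P95H by GPATCH8 guide (0.0614%). At an unadjusted p under 0.05 there were 0, 1 and 0. Of all 43963 events tested, 6316, 8879 and 5236 were under that p in the same order.

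Inclusion was lower in U2AF1 S34F than in U2AF1 WT with either guide. All 3 S34F libraries with sgRenilla (57% to 60%) lay below all 3 WT libraries (71% to 79%), a difference of -15.67 points. With sgGPATCH8 they lay at 7% to 14% against 22% to 27%, a difference of -14.67 points. How many of all events separate S34F from WT libraries in this way was not counted, so the separation is description only. On its own neither comparison passed the adjusted test without a replicate block. The log2 ratio changed by -1.01 ± 0.28 SE (limma adjusted p = 0.254) with sgRenilla and by -1.49 ± 0.28 SE (limma adjusted p = 0.0935) with sgGPATCH8. With a replicate block, described at the end, the sgGPATCH8 comparison became a call (limma adjusted p = 0.05 after rounding) and the sgRenilla comparison did not.

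Averaged over both guide targets, the S34F difference was -15.17 points (log2 ratio -1.25 ± 0.20 SE, limma adjusted p = 0.0178). This average was added after the values were seen. The same average for P95H against WT was -2.5 points (log2 ratio -0.205 ± 0.111 SE, limma adjusted p = 0.329), not called. Without replicate 3 of U2AF1 WT with sgGPATCH8 the difference was -14.67 points and the adjusted p 0.0522, just past the threshold. The S34F difference itself did not depend detectably on the guide target (limma adjusted p = 1.0). It changed by 1.0 points on the percent scale and by -0.48 ± 0.40 SE on the log2 scale, in opposite directions. That comparison, too, draws on the falls for which the exon was chosen.

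Limma called 0 of 5 ACOT9 events for S34F with sgRenilla (0.0023% of all events tested), 0 of 5 with sgGPATCH8 (0.023%), 1 of 5 for the average (1.45%) and 0 of 5 for S34F by GPATCH8 guide (0.0%). At an unadjusted p under 0.05 the counts were 2, 1, 2 and 0 ACOT9 events. Of all 43468 events tested, 4051, 5059, 6573 and 1911 were under that p in the same order.

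The other events near exon 3 share its junctions, so they are not independent of it. The 27 nt exon can also be joined directly to exon 1, a junction that GENCODE 29 does not list, with exon 1 to exon 4 as the alternative. Inclusion after exon 1 was 30% to 67% in the 16 sgRenilla libraries (median 40.5%), 7% to 30% in the 20 sgGPATCH8 libraries (median 17%) and 34% to 61% in the 8 sgSUGP1 libraries (median 43.75%), where 1 library of 293T lay at 61% and the next highest library at 50.5%. The highest sgGPATCH8 library equalled the lowest sgRenilla library at 30%, so the targets met in this event where they were apart in the first.

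With sgGPATCH8 the difference was -33.33 points in SRSF2 WT, where the libraries were at 49% to 58% with sgRenilla and 8% to 28% with sgGPATCH8. In P95H the difference was -20 points, in U2AF1 WT -29.0, in S34F -17.67 and in 293T -23.0. In SF3B1 WT it was -22.25 points but rested on the run: it was -1.5 points in run 1 and -43.0 in run 2. In K700E it was -53.75 points, with -72.5 in run 1 and -35.0 in run 2. The runs of one library differed by up to 36 points in this event, against 10 for inclusion after exon 2.

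**Figure D3:**
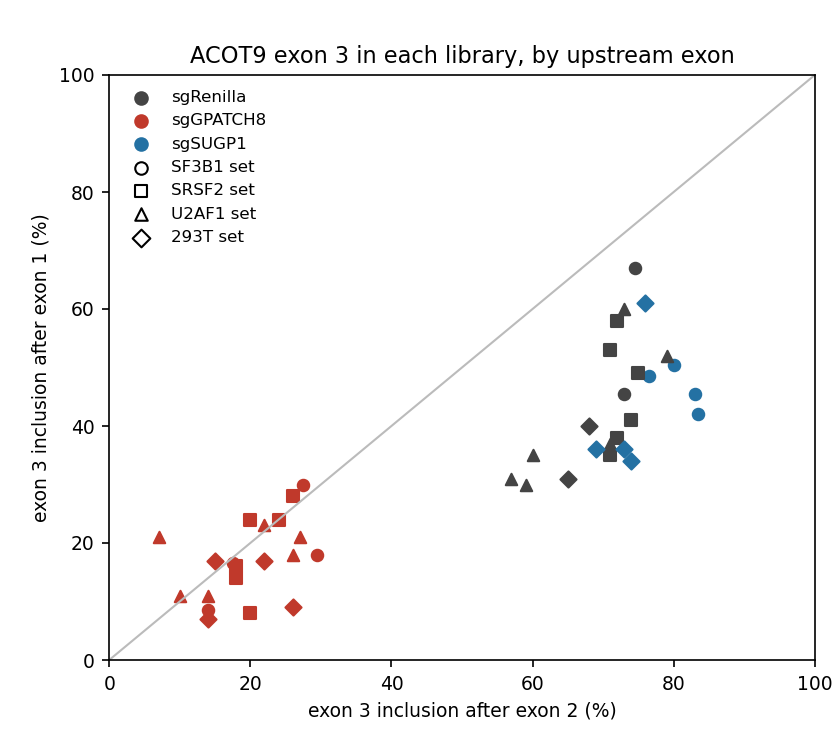
Inclusion of exon 3 after exon 1 (vertical axis, percent) against inclusion after exon 2 (horizontal axis, percent) in each of 44 libraries, coloured by guide target and shaped by set, with the line of equal values. Libraries with sgRenilla and sgSUGP1 lie below the line, with 57% to 83.5% after exon 2 and 30% to 67% after exon 1, and sgGPATCH8 libraries lie near it, at 30% or less on both axes.

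In this event S34F with sgRenilla gave 30% to 35% against 37% to 60% in WT, a difference of -17.67 points (log2 ratio -1.05 ± 0.37 SE, limma adjusted p = 0.399). P95H with sgRenilla gave 35% to 41% against 49% to 58%, a difference of -15.33 points (-0.88 ± 0.47 SE, limma adjusted p = 0.436). Neither difference passed the adjusted test. The groups did not overlap in either comparison, but the share of all events that separate in this way was not counted.

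Exon 2, the 98 nt exon before exon 3, was included in most messages in all groups. Set against the exon 1 to exon 4 junction, it was used at 77% to 97% in sgRenilla libraries (median 89%), at 91% to 98% in sgGPATCH8 libraries (median 95%) and at 74% to 91% in sgSUGP1 libraries (median 84%). With sgGPATCH8 the mean was higher by 8.67 points in SRSF2 WT, where the 3 libraries at 95% to 98% lay above the 3 controls at 86% to 89%. It was 6.33 points higher in P95H, 8.33 in U2AF1 WT, 1.67 in S34F and 5.5 in 293T. The first 3 of these values moved with single control libraries: without sgRenilla replicate 1 the difference was 9.83 points in P95H, 3.5 in U2AF1 WT and -2.67 in S34F, where the direction turned. Without sgRenilla replicate 2 or 3 it was 2.83 or 4.83 points in S34F. In SF3B1 WT the difference was 10 points, with 15.0 in run 1 and 5.0 in run 2, and in K700E it was 0.75 points, with -4.5 and 6.0. Direction and size of that last difference thus depended on the run.

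The lowest exon 2 usage in the series was in K700E with sgSUGP1, where both libraries averaged 74%, against 92.5% in the K700E control. The difference of -18.5 points (log2 ratio -1.99 ± 0.30 SE) had a limma adjusted p of 0.0908. The runs differed: the libraries gave 81% and 83% in run 1 and 67% and 65% in run 2, and the control 98% and 87%. In 293T the difference with sgSUGP1 was -5.25 points (limma adjusted p = 0.797), with -2.0 points without guide 4 replicate 1 and -8.5 without guide 4 replicate 2, and in SF3B1 WT it was 1.0 points (limma adjusted p = 0.953). The SUGP1 effect in K700E differed from that in WT by -19.5 points (limma adjusted p = 0.279).

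Where exon 1 was joined to exon 3 or exon 2, exon 2 was used at 93% to 100% in all 44 libraries. Its median was 99% with sgRenilla and 96.25% with sgGPATCH8. In the U2AF1 set, in which this event could be tested, the difference with sgGPATCH8 was -3.33 points in WT and -4.0 points in S34F, described only.

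Further along the gene the ranges of the guide targets overlapped over the 44 libraries. Exon 9, of 74 nt, was used at 87% to 94% with sgRenilla (median 91%), 84% to 94% with sgGPATCH8 (median 88.75%) and 87% to 94% with sgSUGP1 (median 89.75%). Within the sets, the difference of sgGPATCH8 from sgRenilla was between -4.67 and -2.0 points in 6 of 7 comparisons and 0.0 in U2AF1 WT. In S34F the libraries were at 88% to 89% with sgGPATCH8 against 91% in each control. Exon 7, of 84 nt, was used at 97% to 100% in all 44 libraries. The upstream member of 3' splice sites 3 nt apart at exon 13 was used at 98% to 100%. A 5' splice site that adds 4 nt to exon 14 was used at 0% to 3%. These last 3 events leave little room for a change in one direction.

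**Figure D4:**
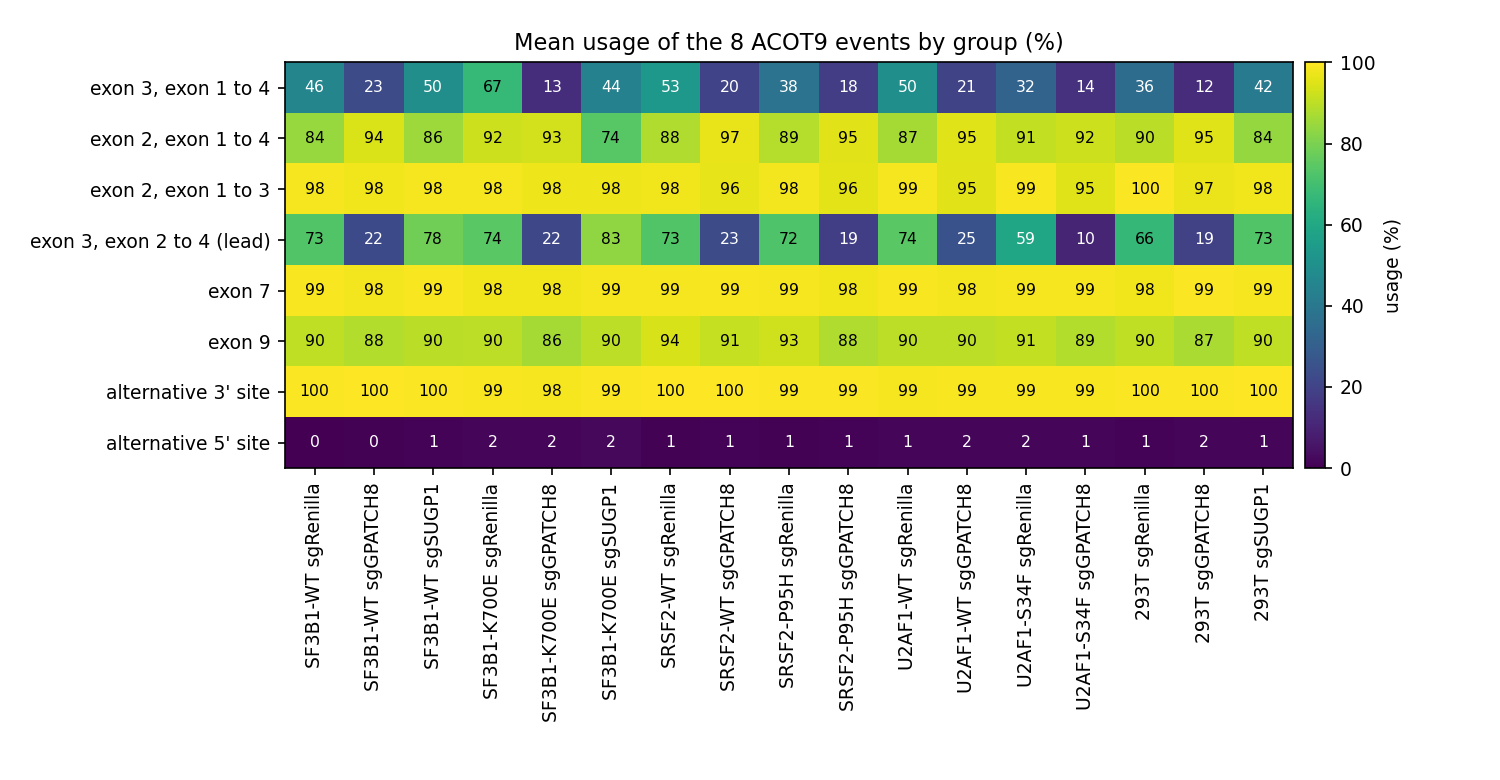
Mean usage in percent (colour and printed number) of each of the 8 ACOT9 events (rows) in the 17 groups (columns). Inclusion of exon 3 after exon 2 or after exon 1 is dark in the sgGPATCH8 columns, exon 2 and exon 9 are bright in all columns, and the last row, the 5' splice site, lies at 0% to 2%.

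Other thioesterases and the mitochondrial pathways around ACOT9 were looked at as whole lists. With GPATCH8 guides, limma called 0.0059% of all events tested in SF3B1 WT, 0.0138% in K700E, 0.491% in SRSF2 WT, 4.84% in P95H, 0.0322% in U2AF1 WT, 0.0345% in S34F and 0.0731% in 293T. Of 14 listed thioesterase genes, 8 had events, and 17 or 18 events of 4 genes other than ACOT9 could be tested in a set. In P95H with sgGPATCH8 against sgRenilla 1 of 17 rose and 1 fell, and in the other 6 comparisons of that kind 0 were called.

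The event that fell belongs to THEM4, a thioesterase of mitochondria, one of whose exons differed by -26.33 points (-1.53 ± 0.14 SE on the log2 ratio scale, limma adjusted p = 0.000314). The same THEM4 exon differed between P95H and WT by -11 points with sgRenilla (limma adjusted p = 0.0418) and by -33.67 points with sgGPATCH8 (limma adjusted p = 0.000313). The exon that rose was in ACOT8, a thioesterase of peroxisomes, with 8.0 points (limma adjusted p = 0.0141). A further THEM4 exon rose by 8.67 points in P95H with sgGPATCH8 against WT (limma adjusted p = 0.0282), and the ACOT8 exon by 7.67 points (limma adjusted p = 0.0234).

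Among genes of fatty acid oxidation and branched-chain amino acid breakdown, 61 to 78 events of 17 or 18 genes could be tested. With GPATCH8 guides, 1 of 67 rose and 1 of 67 fell in P95H, both exons of DLD, a dehydrogenase subunit shared by mitochondrial complexes. None was called in the other 6 comparisons with GPATCH8 guides, beside the shares of all events given above. For K700E against WT 2 of 78 rose (2.56%, against 3.35% of all events called in either direction): an upstream 3' splice site of MCCC1, a subunit of the leucine-breakdown carboxylase, by 29.5 points (limma adjusted p = 0.032), and an exon of AUH, a hydratase of leucine breakdown, by 7.42 points (limma adjusted p = 0.0408). For S34F against WT, averaged, 1 of 64 rose and 4 fell (7.81%, against 1.45% of all events). The 4 were all spliced forms of 1 gene, ACADVL, the very-long-chain acyl-CoA dehydrogenase, with differences of -9.0 to -15.17 points, and the 1 was an exon of HIBCH, a hydrolase of valine breakdown, with 10.33 points. For P95H against WT, 1 of 67 rose with sgRenilla (an exon of ACADM, the medium-chain acyl-CoA dehydrogenase, by 13.33 points), which is 1.49% against 1.08% of all events. With sgGPATCH8 1 rose and 4 fell (7.46%, against 4.06% of all events), in DLD, ACADVL and AUH. With sgSUGP1, limma called 0 events of either list in SF3B1 WT, in K700E and in 293T.

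Within 500000 bp of the gene, 46 further events of 7 genes were listed. With GPATCH8 guides 0 of 21 to 28 tested events were called in each of the 7 comparisons. Of those with a call elsewhere, 3 were in SAT1, the spermidine acetyltransferase, for P95H against WT with sgRenilla, 1 higher by 13.67 points and 2 lower of 24 (differences of -11 and -11.67 points). That is 12.5% of the events there, from 1 gene and with shared junctions, against 1.08% of all events. The remaining 1, in APOO, an apolipoprotein of the mitochondrial inner membrane, fell by 11.67 points for S34F against WT, averaged (limma adjusted p = 0.0405), as 1 of 21 events (4.76%, against 1.45% of all events).

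Which events moved like exon 3 was described over the 44 libraries, with the mean of each set subtracted from the log2 ratio, for the 32586 events tested in all 4 sets. The libraries fall into a GPATCH8 and a non-GPATCH8 cluster, so a high correlation says mainly that an event differs between these clusters, and no p is given. Among the highest were an exon of FLNA, an actin crosslinker (r = 0.97), an exon of PICALM, a clathrin assembly protein (r = 0.97), an exon of CLASP2, a microtubule-binding protein (r = 0.95), and a spliced form of DDX11, a DNA helicase (r = 0.95). By GENCODE, the exons are 24 nt long in FLNA, 24 nt in PICALM and 3 nt in CLASP2.

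The FLNA exon was used at 50% to 76% in sgRenilla libraries, 60.5% to 78% with sgSUGP1 and 24.5% to 40% with sgGPATCH8. PICALM gave 13% to 25%, 11% to 30% and 2% to 8% in the same order. CLASP2 gave 87% to 98%, 89.5% to 95% and 58% to 83%. None of the 3 overlapped between sgGPATCH8 and the rest. They were picked for their correlation with ACOT9 exon 3, whose inclusion separates the same libraries. Their separation is therefore largely built into the choice and tests nothing. The share of all events that separate in this way was not counted. The DDX11 spliced form gave 23% to 62% with sgRenilla and 1% to 6% with sgGPATCH8.

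**Figure D5:**
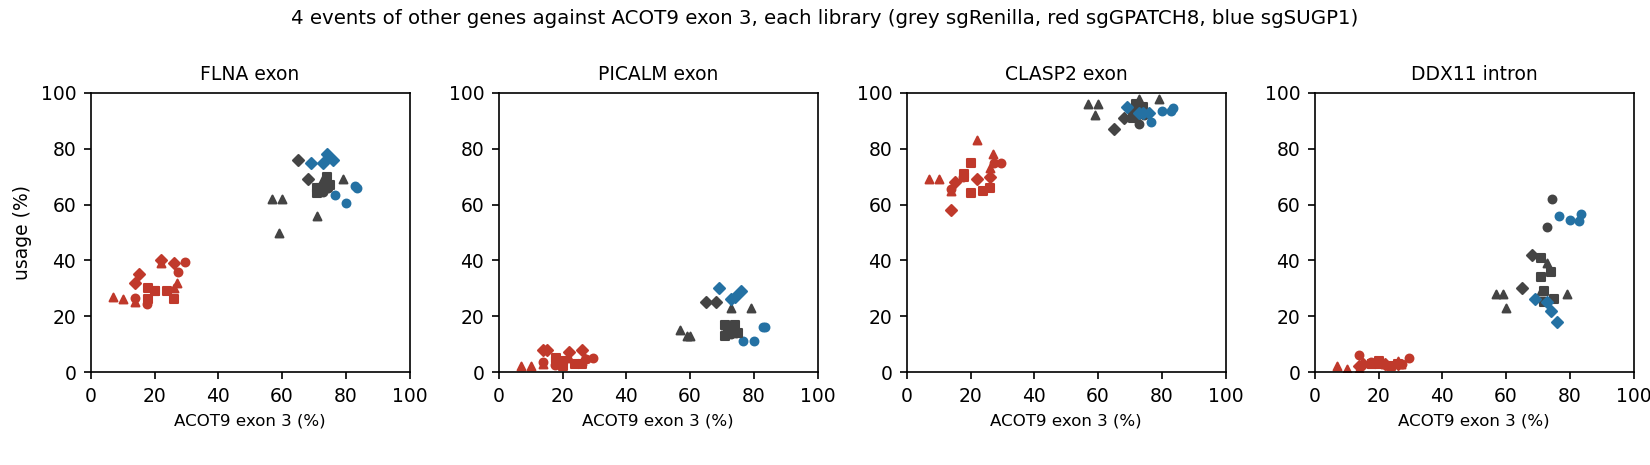
Usage (vertical axis, percent) of 4 events of other genes among those with the highest correlation to ACOT9 exon 3 inclusion (horizontal axis, percent), 1 point per library, coloured by guide target and shaped by set as circles (SF3B1), squares (SRSF2), triangles (U2AF1) and diamonds (293T). In each panel the sgGPATCH8 libraries form a cluster at lower values on both axes than the other libraries.

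At the other end were a DDX11 upstream 3' splice site (r = -0.93), a 120 nt exon of PPIP5K2, an inositol phosphate kinase (r = -0.93), and an upstream 3' splice site of CC2D1B (r = -0.93). The PPIP5K2 exon was used at 33% to 66% with sgGPATCH8, 18% to 33% with sgRenilla and 13% to 33% with sgSUGP1. Within ACOT9, inclusion of exon 3 after exon 1 had r = 0.88, exon 9 r = 0.54 and exon 2 r = -0.69.

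Short exons as a class were compared with all skipped exons, a comparison added after the values were seen and made without the ACOT9 events, which were chosen for their fall. Among other skipped exons of at most 30 nt, a fall of 20 points or more with GPATCH8 guides was seen in 23 of 439 (5.24%) in SF3B1 WT and 24 of 439 (5.47%) in K700E, against 1.47% and 1.51% of all skipped exons. It was seen in 18 of 356 (5.06%) in SRSF2 WT and 29 of 356 (8.15%) in P95H, against 0.92% and 2.02%. In U2AF1 WT there were 14 of 370 (3.78%) and in S34F 12 of 370 (3.24%), against 0.722% and 0.863%, and in 293T 24 of 461 (5.21%) against 1.4%.

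With SUGP1 guides the share of short exons with such a fall was also above that of all skipped exons. It was 14 of 439 (3.19%) against 1.39% in SF3B1 WT, 10 of 439 (2.28%) against 1.59% in K700E and 10 of 461 (2.17%) against 1.29% in 293T. The median difference of the short exons with GPATCH8 guides was between -1.33 and -0.5 points in the 7 comparisons, and with SUGP1 guides between -0.25 and 0.5 points in 3. These shares are a description and were not tested.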

How the data were processed

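The authors deposited, for each splicing event and sample, the fraction (0 to 1, 2 decimals) of the isoform listed first, read from the values and column names. RSEM 1.2.4, Bowtie, TopHat2 2.0.8b and TopHat with build hg19 (GRCh37) are named per the submitters' processing notes. The role of each tool, and why a value is missing, is not given in the sources used here. Libraries were strand-specific and made from poly(A) RNA, per the labels' protocols. The 55 samples gave 54 value columns, of which 0 were unmapped, and 44 libraries after the runs of a library were averaged. Whether those runs are repeats of a library is not stated.

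The files name no genes. Intron lengths were matched to GENCODE 29, which named 100958 events; 10 of 13 ACOT9 junctions matched at a single offset, and no coordinate was converted. Limma 3.58.1 (R 4.3.3) with a trended prior was fitted in each set to log2((f + 0.01)/(1 - f + 0.01)) over events with a value in every library and some group mean of at least 5% and some of at most 95%. p-values were adjusted over all events of a set. The depth behind a fraction is unknown. The fit was tested on simulated data. Alternatives changed the offset, the scale, the filters, the runs, the libraries and the replicate block. The text names every ACOT9 event, the 5 highest and 3 lowest correlated events of other genes (an item among them is not reported here), and called events of thioesterases and neighbours. Members and lists were chosen with earlier results of these data known.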

Additional observations from a re-analysis of the deposited data

Results flagged for a closer look

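Among 16 combinations of ACOT9 event and 293T guide group (4 libraries each), 4 held a library set apart from the other 3 by an outlier rule. The rule passes about 1 in 20 by chance for unrounded values of 1 group. That rate does not apply here, since the shares are rounded and each group joins different guides. In the sgSUGP1 group, inclusion of exon 3 after exon 1 was 61% in 1 library (guide 4) against 34%, 36% and 36%. The other 3 differed by 1 point, which is the step of 2 decimals: exon 7 was 100% in 1 sgGPATCH8 library against 99% in the rest, exon 7 was 98% in 1 sgSUGP1 library against 99%, and the upstream 3' splice site was 99% in 1 sgSUGP1 library against 100%. Where 3 values are equal, any step of the remaining library passes the rule. The library at 61% enters the comparison of sgSUGP1 with sgRenilla in 293T, where this event differed by 6.25 points (limma adjusted p = 0.911). Without that library, sgSUGP1 guide 4 replicate 2, the difference was 0.0 points (limma adjusted p = 1.0), and without guide 4 replicate 1 it was 12.5 points (limma adjusted p = 0.787). Without sgRenilla replicate 1 it was 1.75 points and without sgRenilla replicate 2 it was 10.75.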

How the results depend on the processing

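For exon 3 after exon 2, all 74 alternative values with GPATCH8 guides stayed within 1 SD of the reported ones. Most of them could not do otherwise. The offset, the scale, the filters and the block leave a difference of group means as it is. Leaving out 1 library moves a mean by less than 1 SD. Only the single runs of the SF3B1 set could have moved it further. Leaving out 1 library at a time gave -55.5 to -45.5 points in SF3B1 WT, -60.5 to -45.0 in K700E, -50.67 to -47.67 in SRSF2 WT, -54.33 to -52.83 in P95H, -51.0 to -47.0 in U2AF1 WT, -50.17 to -46.67 in S34F and -48.75 to -45.75 in 293T. Of the tested comparisons, S34F against WT with sgGPATCH8 became a call with a replicate block (-14.67 points, limma adjusted p = 0.05 after rounding). Averaged over guide targets it ranged from -16.08 to -14.0 points when 1 library was left out (limma adjusted p from 0.027 to 0.0522). Same-numbered U2AF1 libraries correlated in their deviations at 0.0684 to 0.373, with 12 of 18 pairs over 0.1, and 12 of 12 libraries correlated best with their own number; in the SRSF2 set 0 of 18 pairs passed 0.1. The replicate block changed no other call of exon 3 after exon 2.

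Small differences changed sign. K700E against WT was -1.17 points in run 1 alone and -0.67 to 4.5 with 1 library left out. K700E by GPATCH8 guide was 1.0 points in run 1 alone and -10.0 to 5.5 with 1 library left out. P95H against WT with sgRenilla ranged from -1.17 to 0.83, and S34F by GPATCH8 guide from -1.33 to 2.67. For exon 2 against exon 1 to 4, P95H against WT with sgRenilla ranged from -2.5 to 3.0 and S34F against WT from -0.83 to 8.33. Its difference with sgSUGP1 in K700E passed the test on untransformed fractions (-18.5 points, limma adjusted p = 0.0355). The cause was not tested. A first run alone of P95H with sgGPATCH8 replicate 3 was not run, since 1 column stands for both runs.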
